A study of Mus musculus with 18 samples.

Results

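RAW cells, a mouse macrophage-like line, were compared at a late and an intermediate hour of stimulation. The arrays were chosen by their labels: the R848 and R848+API09 arrays at 22 h against the same treatments at 7 h, 2 arrays against 2, which are 4 of the 18 arrays of the series. The medium arrays at 22 h and 7 h, 1 against 1, were set beside them to mark changes of time in culture. R848 is a synthetic agonist of Toll-like receptor 7 (TLR7) in mouse cells. Its labelled dose was 0.1 mM, unusually high for this agent and possibly misstated in its unit, and the added compound was labelled at 1 uM. API09 is the inactive analog of apilimod, per the series design, so these cells were treated as R848-stimulated cells with 2 arrays an hour. R848 and R848+API09 are nevertheless different treatments and not labelled replicates. Whether any 2 arrays were separate cultures is not given, so each p value reflects only how much paired arrays differed, and that difference may be technical. The control cells had only culture medium, all groups were the same cell line, and the R848+apilimod arrays took no part in the comparisons.

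TLR7 sits in the endosome, where it senses single-stranded RNA and signals through the adaptor MyD88. The signal reaches NF-kB, the MAP kinases and interferon regulatory factors, which switch on immediate-early transcription factors, cytokines and chemokines. Interferon made in response then acts back on the cells and switches on genes that carry the interferon-stimulated response element (ISRE), while phosphatases, NF-kB inhibitors, IL-10 and SOCS proteins restrain the response.

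All 10 macrophage markers on the fixed list were among the 12257 genes tested, with intensities of 102 to 17530 on the 6 arrays. Of 33 markers of T, B, fibroblast, epithelial and neutrophil cells, 10 were bright enough to be tested, at 14.9 to 58.9. Their summed intensity was 281 on each stimulated array at 7 h, 343 (R848) and 369 (R848+API09) at 22 h, and 279 and 284 in medium at 7 h and 22 h. On a bulk array, fewer cells with a transcript and less of it per cell cannot be told apart. The upper quartile of intensity was lower on the 22 h arrays, 104 for R848 and 87.0 for R848+API09, than on the other arrays of the comparison (112 to 117), and the lower quartile was higher, 8.81 and 9.05 against 8.31 to 8.51. Among the dimmest 3065 genes, 27.3% rose and 5.91% fell, but only 1.08% rose and 0.685% fell by at least 2-fold. Of the brightest 3064 genes, 30.3% rose and 38.3% fell, 3.13% and 8.0% by at least 2-fold. Of the 3064 genes next in brightness, 29.0% rose and 42.8% fell, 4.8% and 11.1% by at least 2-fold. The part of this drift of intensities in small changes of dim genes was not tested. Counts of changes of at least 2-fold are therefore given beside the others. Those counts also differed with brightness, and the all-gene shares given below were not matched for it. The actin probe sets gave a 3' minus 5' log2 difference of 0.17 and 0.12 at 7 h and of 0.25 and 0.49 at 22 h (R848, then R848+API09), and of 0.23 and 0.34 in medium.

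From 7 h to 22 h much of the transcriptome of the stimulated cells moved. Of 12257 genes, 3651 rose and 3574 fell (58.9% called, 29.8% higher and 29.2% lower; limma, adjusted p of 0.05). By at least 2-fold, 398 rose (3.25%) and 775 fell (6.32%). The change had the same sign with R848 alone and with R848+API09 in 7222 of the 7225 genes called. In medium 911 genes rose (7.43%) and 749 fell (6.11%), 106 (0.865%) and 62 (0.506%) of them by at least 2-fold. The 2 changes were then tested against each other: 1264 genes (10.3%) had a higher change in stimulated cells than in medium and 1845 (15.1%) a lower one, 192 (1.57%) and 487 (3.97%) of them by at least 2-fold. With only the 6 arrays of 7 h and 22 h fitted, the counts were 222 and 119 in medium and 418 and 798 for the difference, and 28 named genes lost the call of this difference. Across genes the 2 changes correlated (Pearson r = 0.548, description only, since genes are not independent and the arrays share platform and amplification), and their SD was 0.611 in stimulated cells and 0.330 in medium. When each array was centred on its median, 5506 genes rose and 2892 fell in stimulated cells, and with quantile normalization 4772 rose and 3040 fell. The all-gene median change was 0.06 as deposited, 0.21 with centring and 0.11 with quantile normalization. Without the R848 array at 22 h, 1642 genes rose and 1686 fell in medium, and 1903 had a higher and 3195 a lower change in stimulated cells. Without the R848+API09 array at 22 h those counts were 1642, 1686, 2166 and 2031. The 22 h arrays were the most spread of the 4 pairs (SD of their difference over genes 0.222, against 0.111 to 0.132 at the earlier hours). All hours shared 1 estimate of the spread, so the standard errors and p values may be too small for 22 h. With only the 6 arrays of 7 h and 22 h fitted, 2487 genes rose and 2932 fell in stimulated cells.

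**Figure D1:**
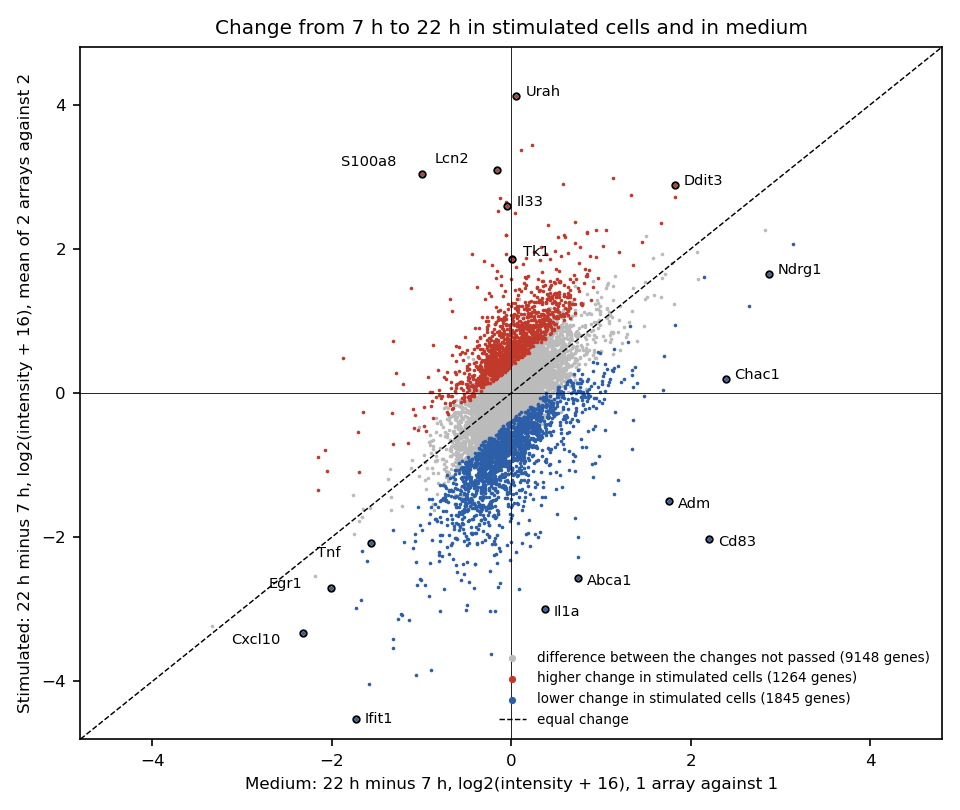
Change from 7 h to 22 h in medium (x axis, 1 array against 1) and in stimulated cells (y axis, mean of 2 arrays against 2), both as log2(intensity + 16), with 1 point for each of 12257 genes. Coloured points are the 1264 genes whose change was higher and the 1845 genes whose change was lower in stimulated cells than in medium; Ifit1 lies lowest at -4.53 and Urah highest at 4.12, and Cd83 and Adm lie at the lower right, where the 2 changes were opposite.

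The early response was defined at 1 h and 3 h, on arrays that do not enter the means at 7 h and 22 h. Those arrays do enter the estimate of the spread that all comparisons share. The early calls and the later calls are therefore not independent. Of 77 genes higher than medium at 1 h (0.628% of genes tested, while 0.0653% were lower), 54 fell from 7 h to 22 h (70.1%), 10 rose and 13 did not pass. Of 767 genes higher at 3 h (6.26%), 509 fell (66.4%), 234 of them by at least 2-fold, and 105 rose (13.7%). Their median change was -0.53 in stimulated cells and -0.09 in medium, against 0.06 and 0.01 over all genes. For 369 of the 767 the change was lower than in medium, whether or not the gene fell, and for 52 it was higher. Restricted to the 256 genes higher by at least 2-fold at 3 h, 197 fell (77.0%), 121 of them by at least 2-fold.

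The return was partial. At 22 h, 372 of the 767 genes were still higher than medium, 146 were lower and 249 did not pass. Of the 256 strongest, 163 were still higher. Over all genes 16.5% were higher and 29.0% lower at that hour. Genes lowered early moved the other way: of 1123 genes lower than medium at 3 h (9.16%), 540 rose from 7 h to 22 h (48.1%) and 256 fell (22.8%). At 22 h 706 were still lower, against 29.0% of all genes. The share of the 3 h genes that fell was 56.3% to 68.8% over the other settings that kept changes of any size. With the sets drawn again each time, the count of 3 h genes that rose was 163 without the R848 array at 22 h and 205 without the R848+API09 array. For the genes lower at 3 h, the counts that rose and fell were 728 and 639 without the former array and 948 and 428 without the latter.

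**Figure D2:**
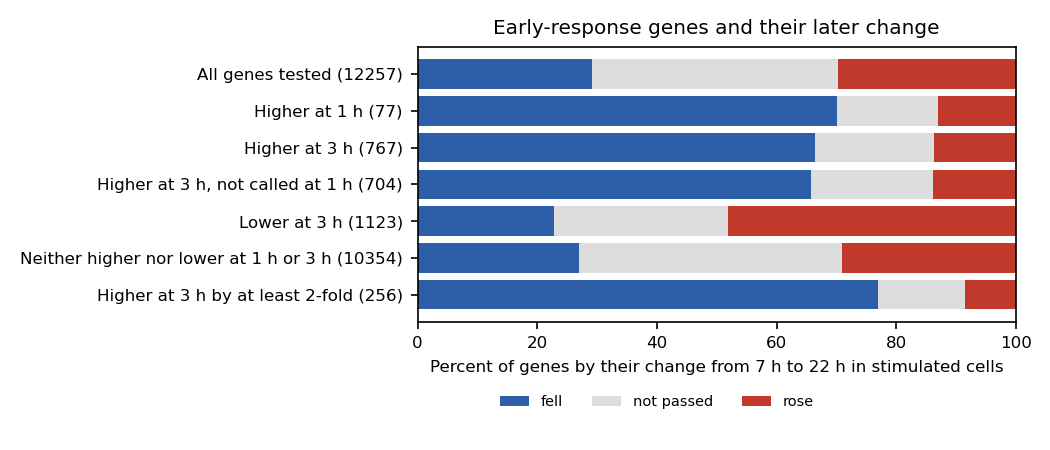
Share of genes (x axis, percent) that fell, did not pass or rose from 7 h to 22 h in stimulated cells, for all genes and for sets defined at 1 h and 3 h against medium, with the number of genes in brackets. The sets higher at 1 h or 3 h fell in 70.1% and 66.4% of genes against 29.2% of all genes, and the set lower at 3 h rose in 48.1%.

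The immediate-early transcription factors, 15 of which were already above medium at 1 h, were mostly lower at 22 h than at 7 h. Of 19 tested, 14 fell and 2 rose (Nr4a1 by 0.37 ± 0.11 and Atf3 by 1.24 ± 0.12; log2 difference and its standard error, 2 arrays against 2, here and below), with 10 of the falls at least 2-fold. Their median change was -1.23, and -0.23 in medium, where 8 fell and 2 rose. Over all genes 29.2% fell and 29.8% rose, 6.32% and 3.25% by at least 2-fold, the shares to set beside this and the later lists. These shares were not matched to the brightness of a list, and falls were more frequent among bright genes than among the dimmest. Egr1, a zinc-finger factor induced within the first hour, read 4386 (R848) and 5121 (R848+API09) at 1 h. It read 654 and 681 at 7 h, then 96.1 and 81.5 at 22 h, with 596 and 136 in medium at 7 h and 22 h. All 3 treatments thus fell late, and the stimulated arrays at 22 h were the lowest of these 6. Its change was -2.71 ± 0.10 (adjusted p = 7.77e-09) against -2.01 ± 0.14 in medium, and the difference of -0.70 ± 0.17 passed (adjusted p = 0.0109), though not over the 6 arrays of 7 h and 22 h alone. Ier2 fell by 2.37 ± 0.13 and Fosl1, an AP-1 subunit, by 2.15 ± 0.14. Myc fell by 1.59 ± 0.11 and by 1.58 ± 0.16 in medium, and the difference between these falls did not pass (-0.01 ± 0.20, adjusted p = 0.972). Egr3 fell by 2.33 ± 0.10, but its probe sets ran from -2.33 to 0.21.

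The phosphatases and Sprouty proteins that dampen MAP kinase signals fell with them: 8 of 12 fell, 6 by at least 2-fold, and 2 rose. Dusp5, which acts on ERK in the nucleus, read 680 and 838 at 7 h, then 164 and 143 at 22 h, against 63.4 and 56.9 in medium. The groups did not overlap, and both 22 h arrays remained above medium. It fell by 2.19 ± 0.12 (adjusted p = 1.24e-07), and medium changed by -0.12 ± 0.17. Dusp1, which dephosphorylates p38 and JNK, fell by 1.03 ± 0.09 and was still 2.93 above medium at 22 h.

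**Figure D3:**
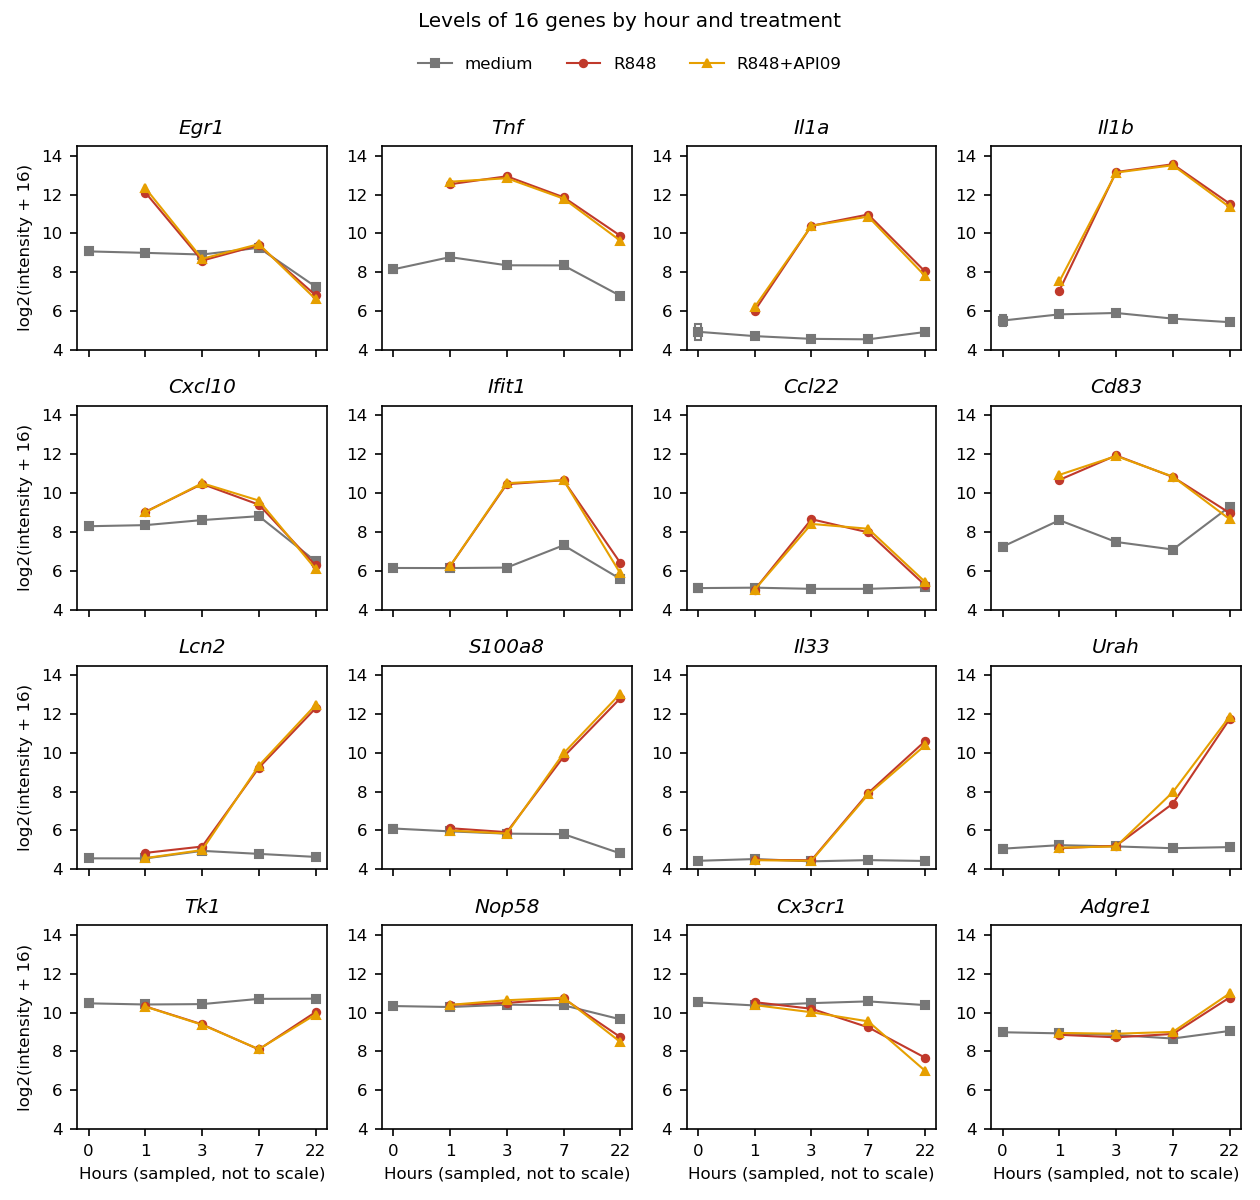
Level of 16 genes, log2(intensity + 16) on the y axis, against the sampled hours on the x axis (not to scale), for medium (squares, with the mean of 2 arrays at 0 h and both arrays as open squares), R848 (circles) and R848+API09 (triangles), 1 array per point. Egr1 peaks at 1 h, Cxcl10 at 3 h and Ifit1 at 7 h and all are low at 22 h, whereas Lcn2, S100a8, Il33 and Urah are near medium at 3 h and highest at 22 h.

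Among NF-kB subunits and feedback genes 13 of 17 fell and 1 rose, 7 of the falls being at least 2-fold, with a median of -0.78 against -0.11 in medium. For 10 of the 17 the change was lower than in medium and for 1 it was higher. Nfkbie, which encodes the inhibitor IkB-epsilon, read 276 and 308 at 7 h, 54.1 and 25.3 at 22 h, and 204 and 137 in medium. Both 22 h arrays were below medium. It fell by 2.51 ± 0.18 (adjusted p = 7.45e-07). Tnfaip3, which encodes the ubiquitin-editing inhibitor A20, read 2244 and 2840 at 1 h, 385 and 366 at 7 h, then 143 and 166 at 22 h, and fell by 1.2 ± 0.11. The subunit gene Rel fell by 1.58 ± 0.15. Nfkbiz, an inducible co-regulator of secondary NF-kB targets, hardly left its plateau: 3426 and 3243 at 7 h, then 2563 and 2699 at 22 h, against 61.3 and 66.3 in medium. Its fall of 0.34 ± 0.07 passed (adjusted p = 0.00201) but not with median centring (-0.19, adjusted p = 0.0877), and the mean over its probe sets was -0.78. Birc3, an inhibitor of apoptosis, rose by 0.84 ± 0.09.

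Inflammatory cytokine genes split into those that fell and those that stayed near their 7 h level. Of 17 tested, 9 fell, 5 of them by at least 2-fold, and 3 rose (over all genes 29.2%, 6.32% and 29.8%). For 10 the change was lower than in medium. Il1a read 1988 and 1843 at 7 h, 247 and 208 at 22 h, and 7.23 and 14.1 in medium. The groups were far apart and both 22 h arrays were well above medium. It fell by 2.99 ± 0.14 (adjusted p = 4.32e-08). Il1b, the other interleukin-1, was the brighter, at 12030 and 11680 at 7 h, then 2950 and 2599 at 22 h, with 32.7 and 26.9 in medium. Its fall of 2.09 ± 0.14 (adjusted p = 3.34e-07) left it 6.02 ± 0.17 above medium.

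Tnf read 3692 and 3529 at 7 h, then 924 and 772 at 22 h, a fall of 2.08 ± 0.09 (adjusted p = 2.89e-08). Medium also fell, from 309 to 93.9 (by 1.57 ± 0.13). The difference of -0.51 ± 0.16 was near the threshold (adjusted p = 0.0399), and with a 7 h stimulated array or a 0 h medium array left out its adjusted p was 0.0641 to 0.0998. Csf2, which encodes the granulocyte-macrophage growth factor, read 165 and 157 at 7 h, then 22.1 and 21.2 at 22 h, against 22.4 and 18.3 in medium. It came back near the medium level: it fell by 2.23 ± 0.08, and at 22 h its difference from medium was 0.14 (adjusted p = 0.280). Of the 17 cytokine genes tested, 14 were above medium at 7 h and 12 at 22 h (11.3% and 16.5% of all genes).

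Other cytokines were nearly sustained. Csf3, the granulocyte growth factor, fell by only 0.71 ± 0.10, from 3771 and 3628 to 2340 and 2161, with 9.78 and 13.7 in medium. Il6 went from 247 and 291 to 211 and 214, a fall of 0.32 ± 0.08 (adjusted p = 0.00769). Both were still far above medium at 22 h, by 6.25 and 3.40. Il33, an alarmin of the interleukin-1 family, went the opposite way, as given with the late genes.

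Of 14 chemokine genes 10 fell, 6 by at least 2-fold, and 3 rose. Ccl22, which attracts T cells through CCR4, read 387 and 325 at 3 h, 236 and 271 at 7 h, then 22.4 and 27.2 at 22 h, against 17.5 and 19.6 in medium. It fell by 2.72 ± 0.10 (adjusted p = 8.95e-09), and at 22 h it did not pass against medium (0.20, adjusted p = 0.223). Ccl5 fell by 1.68 ± 0.08, from 5454 and 6037 to 1736 and 1834, and remained 4.25 above medium. Cxcl16 fell by 2.03 ± 0.11. The neutrophil chemokine Cxcl2 read 6799 and 6092 at 7 h, then 4872 and 5426 at 22 h. Its change of -0.32 ± 0.12 passed only narrowly (adjusted p = 0.0443), and its adjusted p was 0.223 without the R848 array at 7 h and 0.166 without that at 22 h. Ccl2, an attractant of monocytes, fell by 1.08 ± 0.11 in stimulated cells and by 2.05 in medium, so that its change was higher than in medium. The monocyte chemokine genes Ccl6 and Ccl7 rose by 1.15 ± 0.11 and 0.71 ± 0.08.

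**Figure D4:**
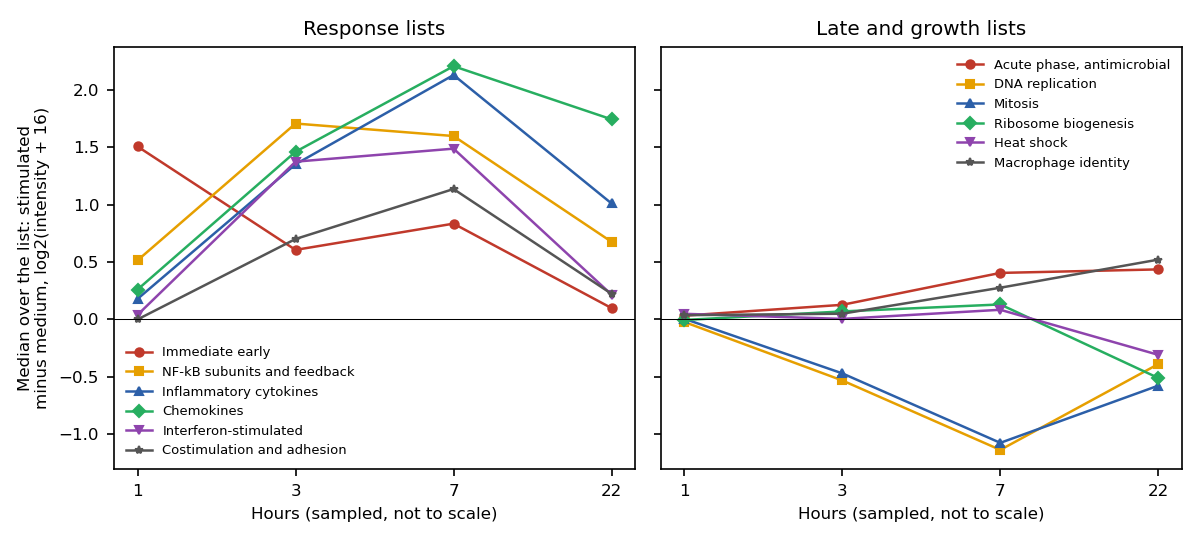
Median over a gene list of the difference from medium (y axis, log2(intensity + 16)) at 1, 3, 7 and 22 h (x axis, not to scale), for response lists (left) and late and growth lists (right). Immediate-early genes peak at 1 h (1.51), chemokines and cytokines at 7 h (2.21 and 2.13), and the interferon-stimulated list goes from 1.49 at 7 h to 0.22 at 22 h; DNA replication is lowest at 7 h (-1.14).

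Interferon-stimulated genes fell almost throughout the list. Of 28 tested, 26 fell, 23 of them by at least 2-fold, none rose, and Bst2 and Oas1a did not pass. The median was -1.78, and -0.49 in medium, where 12 fell. For 24 of the 28 the fall was larger than in medium. All 28 were higher than medium at 7 h (11.3% of all genes), and 12 were higher and 6 lower at 22 h (16.5% and 29.0% of all genes, 45.5% in either direction). Each other setting that kept changes of any size called 23 to 27 of them lower and none higher.

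Ifit1, an antiviral protein that binds foreign RNA ends, had the largest fall of the 12257 genes. It read 59.4 and 59.5 at 1 h, 1389 and 1444 at 3 h, 1599 and 1612 at 7 h, then 68.9 and 42.4 at 22 h, while medium read 143 at 7 h and 31.8 at 22 h. The 22 h arrays lay between the medium arrays, and at 22 h the mean was still 0.56 above medium. The change was -4.53 ± 0.13 (adjusted p = 2.59e-09) and exceeded that in medium by -2.79 ± 0.23 (adjusted p = 2.73e-05). Ifit3 fell by 3.91 ± 0.14, from 1277 and 1661 to 90.2 and 74.7. Rsad2, which encodes viperin, fell by 3.06 ± 0.13, and Gbp3, a guanylate-binding protein, fell by 3.03 ± 0.10. Oasl2 came up later than the others, at 40.8 and 43.9 at 3 h but 370 and 420 at 7 h, and was back at 46.1 and 30.0 at 22 h.

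Irgm1, an immunity-related GTPase, read 1505 and 1481 at 7 h, then 128 and 102 at 22 h, against 678 and 263 in medium, so that both stimulated arrays ended below medium. It fell by 3.53 ± 0.09. The chemokine gene Cxcl10, also an interferon target, peaked at 3 h at 1406 and 1439. It read 661 and 768 at 7 h, then 61.5 and 52.0 at 22 h, with 433 and 73.7 in medium. It fell by 3.33 ± 0.09, medium fell by 2.32 ± 0.13, and the difference of -1.0 ± 0.16 passed (adjusted p = 0.0011). Zbp1, a sensor of Z-form nucleic acid, departed from the group: it read 772 and 934 at 7 h, then 562 and 456 at 22 h, against 103 and 65.6 in medium. It fell by 0.73 ± 0.12 and was 2.68 above medium at 22 h.

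The promoters of 5 of these genes are shown because the genes fell together and share the ISRE letters. The sequences are RefSeq's for build GRCm38.p6, the 250 bases before the gene's start, read 5′ to 3′ on the gene's strand, with matches to the ISRE letters (GAAA, any 2 bases, GAAA, on either strand) in capitals. They lie at chr19:34640639-34640888 (+ strand, Ifit1), chr19:34583279-34583528 (+, Ifit3), chr12:26456453-26456702 (-, Rsad2), chr11:48871421-48871670 (-, Irgm1) and chr5:92348890-92349139 (-, Cxcl10).
Ifit1: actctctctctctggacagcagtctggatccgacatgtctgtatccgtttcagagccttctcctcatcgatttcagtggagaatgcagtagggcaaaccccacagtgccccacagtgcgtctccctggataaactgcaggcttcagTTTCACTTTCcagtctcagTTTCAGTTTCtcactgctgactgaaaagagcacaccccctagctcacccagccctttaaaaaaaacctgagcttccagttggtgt
Ifit3: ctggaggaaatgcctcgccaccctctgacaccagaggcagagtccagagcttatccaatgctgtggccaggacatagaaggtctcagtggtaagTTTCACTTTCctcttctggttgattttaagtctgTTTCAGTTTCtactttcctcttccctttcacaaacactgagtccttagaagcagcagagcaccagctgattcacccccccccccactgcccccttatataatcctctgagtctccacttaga
Rsad2: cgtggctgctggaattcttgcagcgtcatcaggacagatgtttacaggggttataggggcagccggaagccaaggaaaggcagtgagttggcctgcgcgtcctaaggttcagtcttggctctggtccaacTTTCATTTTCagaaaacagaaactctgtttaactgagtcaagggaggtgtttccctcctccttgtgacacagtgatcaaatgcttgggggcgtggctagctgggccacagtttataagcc
Irgm1: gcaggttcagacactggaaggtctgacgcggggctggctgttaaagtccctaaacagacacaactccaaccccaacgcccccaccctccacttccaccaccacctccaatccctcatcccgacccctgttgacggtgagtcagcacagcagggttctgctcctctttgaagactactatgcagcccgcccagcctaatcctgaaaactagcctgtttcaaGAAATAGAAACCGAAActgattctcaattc
Cxcl10: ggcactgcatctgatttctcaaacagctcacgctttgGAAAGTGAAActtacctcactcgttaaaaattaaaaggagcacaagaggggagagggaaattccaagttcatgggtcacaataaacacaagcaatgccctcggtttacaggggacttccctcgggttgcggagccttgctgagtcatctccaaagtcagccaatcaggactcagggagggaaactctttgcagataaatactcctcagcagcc
Matches begin 104 and 85 bases before the start in Ifit1, 156 and 122 in Ifit3, 120 in Rsad2, 213 in Cxcl10 and 30 and 24 in Irgm1, where the matches overlap. Searched over 300 bases (250 before to 50 after the start), 13 of the 19 interferon-stimulated genes on the list with a window held a match (68.4%). The share was 3.44% of all 32851 windows of that length, 3.57% of tested genes with a window, 6.18% of 631 genes with a window that fell at least 2-fold and 3.44% of 320 that rose. A match is a description of letters, not of a bound site.

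Genes of the interferon system itself moved less. Of 11 interferons, receptors and regulatory factors, 8 fell, 1 of them by at least 2-fold, and 1 rose. Irf5, which acts downstream of TLR7 and MyD88, fell by 1.75 ± 0.08, with probe sets that differed by more than 1. Stat2 and Irf9, which act downstream of the interferon receptor, fell by 0.88 ± 0.12 and 0.83 ± 0.09. Ifnb1 was dim throughout, at 40.7 and 34.9 at 3 h, 20.7 and 30.6 at 7 h and 17.1 on both arrays at 22 h, against 15.1 and 17.3 in medium, and fell by 0.32 ± 0.10 (adjusted p = 0.021). Irf7, an interferon-induced regulator of interferon genes, did not follow the interferon-stimulated list: it read 1227 and 1502 at 7 h, then 1616 and 1514 at 22 h, a change of 0.20 ± 0.09 (adjusted p = 0.0840). Ifnar2, an interferon receptor chain, rose by 0.91 ± 0.07 on its brightest probe set, and the mean of its probe sets gave -0.39.

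Part of the receptor pathway that R848 engages was itself lower at 22 h. Of 18 Toll-like receptors and adaptors 10 fell, 4 by at least 2-fold, 3 rose and 5 did not pass. Over all genes 29.2% fell, 6.32% by at least 2-fold, and 29.8% rose. The list median was -0.42, against 0.23 in medium. For 9 the change was lower than in medium and for none higher. Tlr7, the receptor of R848, read 410 and 386 at 7 h, then 171 and 133 at 22 h, whereas medium read 511 and 659. It fell by 1.31 ± 0.10 (adjusted p = 9.47e-07), medium changed by 0.36 ± 0.14, and at 22 h the difference from medium was -2.02. Its shared adaptor Myd88 fell by 1.51 ± 0.09. Tlr2, which senses bacterial lipoproteins, was first raised, to 5406 and 5220 at 3 h, and then fell by 1.62 ± 0.13 to 889 and 620 at 22 h. Irak3, a kinase-like protein that restrains this pathway, rose by 0.49 ± 0.11.

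Costimulatory and adhesion genes included the clearest opposite movement of stimulated cells and medium. Of 13 tested, 7 fell, 6 by at least 2-fold, and 4 rose (over all genes 29.2%, 6.32% and 29.8%). The count of rises is near the all-gene share and says little about the list. Cd83, a surface marker of activated antigen-presenting cells, read 3918 and 3824 at 3 h, 1801 and 1824 at 7 h, then 487 and 388 at 22 h. Medium went up from 120 at 7 h to 614 at 22 h and ended above both stimulated arrays. The changes were -2.02 ± 0.11 and 2.21 ± 0.16, and their difference was -4.23 ± 0.19 (adjusted p = 1.12e-06). Cd40, the receptor for T-cell help, fell by 1.96 ± 0.10, from 1936 and 2081 to 521 and 490. The adhesion ligand gene Icam1 fell by 1.70 ± 0.08 and ended 0.99 below medium. Cd274, which encodes the inhibitory ligand PD-L1, rose by 0.88 ± 0.08.

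The IL-10 and STAT3 axis, which restrains macrophage activation, fell widely but little. Of 15 genes 13 fell, 2 by at least 2-fold, and 1 rose, with a median of -0.52. Stat3 fell by 1.2 ± 0.08 (probe sets differing by more than 1) and the receptor gene Il6ra by 1.08 ± 0.10. Il10 itself read 931 and 900 at 7 h, then 636 and 635 at 22 h, a fall of 0.52 ± 0.07 that left it 4.25 above medium. Socs3, the feedback inhibitor induced by STAT3, read 7636 and 7201 at 7 h, then 5005 and 5310 at 22 h, and fell by 0.52 ± 0.08. With the 75th-percentile filter, 8 of the genes fell.

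Of 18 macrophage identity genes 7 rose and 7 fell, shares not far from the 29.8% and 29.2% of all genes, so that the count says little about the list. Cx3cr1, the fractalkine receptor, read 591 and 734 at 7 h, then 189 and 113 at 22 h, against 1519 and 1328 in medium. It was already below medium at 7 h and fell by a further 2.05 ± 0.18 (adjusted p = 2.81e-06). Trem2, a lipid-sensing receptor, fell by 1.51 ± 0.11 from 982 and 1008 to 394 and 289 on its brightest probe set, while its other probe set changed by 0.25. Csf1r, the receptor for macrophage growth factor, fell by 0.69 ± 0.10. Adgre1, which encodes the F4/80 antigen, did the reverse: 463 and 499 at 7 h, then 1746 and 2019 at 22 h, with 390 and 517 in medium. It rose by 1.93 ± 0.09 (adjusted p = 4.34e-08). Aif1, a macrophage actin-binding protein, rose by 1.30 ± 0.13, and its change in medium was 0.06.

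The late program was led by a small number of steep rises. The largest were of Urah at 4.12 ± 0.15, Pdpn at 3.44 ± 0.14 and Lix1 at 3.38 ± 0.12, followed by Lcn2 and S100a8. Of the 398 genes that rose at least 2-fold, 274 had not passed against medium at 3 h (68.8%). At that hour 108 had been lower (27.1%) and 16 higher (4.02%). Over all genes only 15.4% passed at 3 h, 9.16% lower and 6.26% higher. At 22 h 231 of the 398 were above medium (58.0%, against 16.5% of all genes), 61 below (15.3%, against 29.0%) and 106 neither. The change was higher than in medium for 317 of the 398 (79.6%, against 10.3% of all genes). In medium 205 also rose (51.5%, against 7.43%). The 398 were chosen by the same change and 22 h arrays. That choice by itself raises the shares above medium at 22 h and above the change in medium.

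Antimicrobial and acute-phase genes held some of the steepest rises, in a list with a median of 0.14: 7 of 18 rose, 3 by at least 2-fold, 2 fell and 9 did not pass. Over all genes 29.8% rose, 3.25% by at least 2-fold, so the count of rises of any size says little about the list. Lcn2, which encodes the iron-siderophore binder lipocalin-2, read 20.1 and 15.8 at 3 h, 586 and 633 at 7 h, then 5020 and 5661 at 22 h, against 11.8 and 8.91 in medium. Every 22 h array was above every 7 h array. It rose by 3.10 ± 0.11 (adjusted p = 5.79e-09). S100a8, a calgranulin subunit, read 44.4 and 41.5 at 3 h, 873 and 992 at 7 h, then 7189 and 8446 at 22 h. Medium went the other way, from 40.3 to 12.3. The rise of 3.04 ± 0.10 and the fall of 0.99 in medium differed by 4.04 ± 0.17 (adjusted p = 1.12e-06).

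Others in the list were already high at 7 h. Wfdc17, a secreted protease-inhibitor-like protein, rose by 1.43 ± 0.08, from 4426 and 4694 to 12320 and 12340. Saa3, an acute-phase apolipoprotein, rose by 0.78 ± 0.09, from 5765 and 6052 to 9667 and 10600. Fpr2, a formyl peptide receptor, rose by 0.54 ± 0.09 and Slpi, an antiprotease, by 0.49 ± 0.10. Since Lcn2 and S100a8 are also granulocyte genes, the neutrophil markers were read beside them. Csf3r read 33.7 to 49.96 on the stimulated arrays and rose by 0.34 ± 0.07. In medium Csf3r went from 27.7 to 40.7, a rise of 0.37, and the difference between these rises did not pass. Ly6g, Elane, Mpo, Cxcr2 and Prtn3 were not analysed here. The C/EBP letters (TTGC, any 2 bases, AA, on either strand) were found for 10.3% of the genes with a window that rose at least 2-fold. The share was 9.92% of tested genes with a window and 10.8% of all windows of that length.

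Il33 read 6.17 and 5.73 at 3 h, 228 and 216 at 7 h, then 1540 and 1313 at 22 h, against 6.22 and 5.56 in medium. Medium did not move, and the 22 h arrays were far above those at 7 h. The rise was 2.60 ± 0.08 (adjusted p = 3.85e-09). Urah, which encodes an enzyme of urate breakdown, was at 21.1 and 20.2 at 3 h, 152 and 237 at 7 h, then 3403 and 3733 at 22 h, with 17.99 and 19.4 in medium. Both of its probe sets rose, by 4.12 and 4.30. Pdpn, the membrane mucin podoplanin, went from 121 and 96.8 to 1540 and 1150, with 22.1 and 28.6 in medium. Upp1, a uridine phosphorylase, rose by 2.52 ± 0.14.

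Other genes had their rise after 7 h. Gstt1, Gstp1 and Rras did not pass against medium at 7 h, whereas Slamf7 and Ddit3 were already above it by 0.50 and 0.64 and Acss2 and Fam13c were below it. Gstt1, a glutathione transferase, read 32.0 and 31.1 at 7 h, then 288 and 299 at 22 h, against 25.8 and 22.5 in medium, and rose by 2.70 ± 0.07. Slamf7, an activating receptor of the SLAM family, read 25.4 and 24.2 at 7 h, then 260 and 221 at 22 h, and rose by 2.65 ± 0.10. Gstp1, a second glutathione transferase, rose by 2.90 ± 0.09, and in medium by 0.58. Rras, a small GTPase, rose by 2.98 ± 0.11, from 104 and 117 to 1125 and 853, and Acss2, which makes acetyl-CoA from acetate, by 2.75 ± 0.08; medium rose by 1.14 and 1.34. Fam13c was 1.68 below medium at 22 h after a rise of 2.72 ± 0.08, having read 29.5 and 23.6 at 3 h. The protein-secretion stress gene Ddit3, which encodes CHOP, rose by 2.89 ± 0.10 on its brightest probe set and by 1.82 in medium, and its other probe set changed by -0.22.

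Some products of the early response neither rose nor fell much. Ptgs2, the inducible prostaglandin synthase, read 6539 and 7020 at 7 h, then 5088 and 6296 at 22 h, a change of -0.26 ± 0.10 that did not pass (adjusted p = 0.0533). Medium fell from 108 to 23.4. The difference between the changes was 1.40 ± 0.18 (adjusted p = 0.000407). Nos2, which makes nitric oxide, rose by 0.40 ± 0.16, and Acod1, the itaconate-producing enzyme, fell by 1.2 ± 0.10 and remained 4.36 above medium. Among matrix and plasminogen genes, Timp1, a metalloprotease inhibitor, rose by 0.93 ± 0.15 and was 4.74 above medium, while the urokinase receptor gene Plaur fell by 2.98 ± 0.11, from 4219 and 3871 to 561 and 440. Tnc, the matrix glycoprotein tenascin-C, fell by 2.34 ± 0.11, from 1139 and 977 to 217 and 176.

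Genes of DNA replication, lowered earlier, rose late. Of 22 tested, 16 rose, 3 by at least 2-fold, and 3 fell, with a median of 0.48 against -0.21 in medium, where none rose and 6 fell. For 15 the change was higher than in medium and for none lower. All 22 were below medium at 7 h (18.5% of all genes), and 14 still were at 22 h (29.0% of all genes). Tk1, the thymidine kinase of S phase, read 1263 and 1255 at 1 h, 658 and 648 at 3 h, 259 and 262 at 7 h, then 1031 and 942 at 22 h. Medium read 1656 and 1667. The dip was deepest at 7 h, and the 22 h arrays remained below medium by 0.75. It rose by 1.86 ± 0.07 (adjusted p = 1.07e-08). The polymerase genes Prim1 and Pold1 rose by 1.12 ± 0.08 and 1.08 ± 0.10, and Mcm6, a subunit of the replicative helicase, rose by 0.65 ± 0.09 while medium fell by 0.61. The 3 falls (Mcm10, Cdc6 and Fen1, by 0.22 to 0.26) did not pass with centring or quantile normalization.

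Mitotic genes moved less. Of 23, 12 rose, none by 2-fold, and 5 fell. All 23 were below medium at 7 h and 20 still were at 22 h (18.5% and 29.0% of all genes). Aurkb, a kinase of chromosome segregation, rose by 0.65 ± 0.07, and Cenpf, a kinetochore protein, fell by 0.64 ± 0.15. The number that fell was 2 without the R848+API09 array at 22 h or the R848 array at 7 h, and 8 without the R848 array at 22 h. Of 17 brakes on the cell cycle and p53 targets, 11 rose in stimulated cells and 11 in medium. Gadd45a, a growth-arrest and DNA-damage gene, read 131 and 130 at 7 h, then 692 and 677 at 22 h, against 19.8 and 52.7 in medium, and rose by 2.25 ± 0.08. Its rise was 1.31 ± 0.14 above that in medium. Ccng2, an atypical cyclin, rose by 1.58 ± 0.15 and in medium by 2.08.

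Ribosome assembly and heat-shock genes fell late. Of 20 ribosome biogenesis genes 19 fell, 8 by at least 2-fold, none rose, and the median was -0.91 against -0.37 in medium, where 12 fell. For 12 the fall was larger than in medium. Nop58, a core protein of box C/D small nucleolar particles, read 1683 and 1727 at 7 h, then 412 and 344 at 22 h, with 1313 and 792 in medium. It was at most 0.37 above medium at the earlier hours and ended 1.04 below. It fell by 2.13 ± 0.09 (adjusted p = 1.98e-08). Of 11 heat-shock genes 9 fell, 5 by at least 2-fold, and 1 rose. Hspa1b, the inducible Hsp70, read 543 and 480 at 3 h, 218 and 280 at 7 h, then 24.9 and 26.7 at 22 h, against 254 and 123 in medium, and fell by 2.66 ± 0.11.

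**Figure D5:**
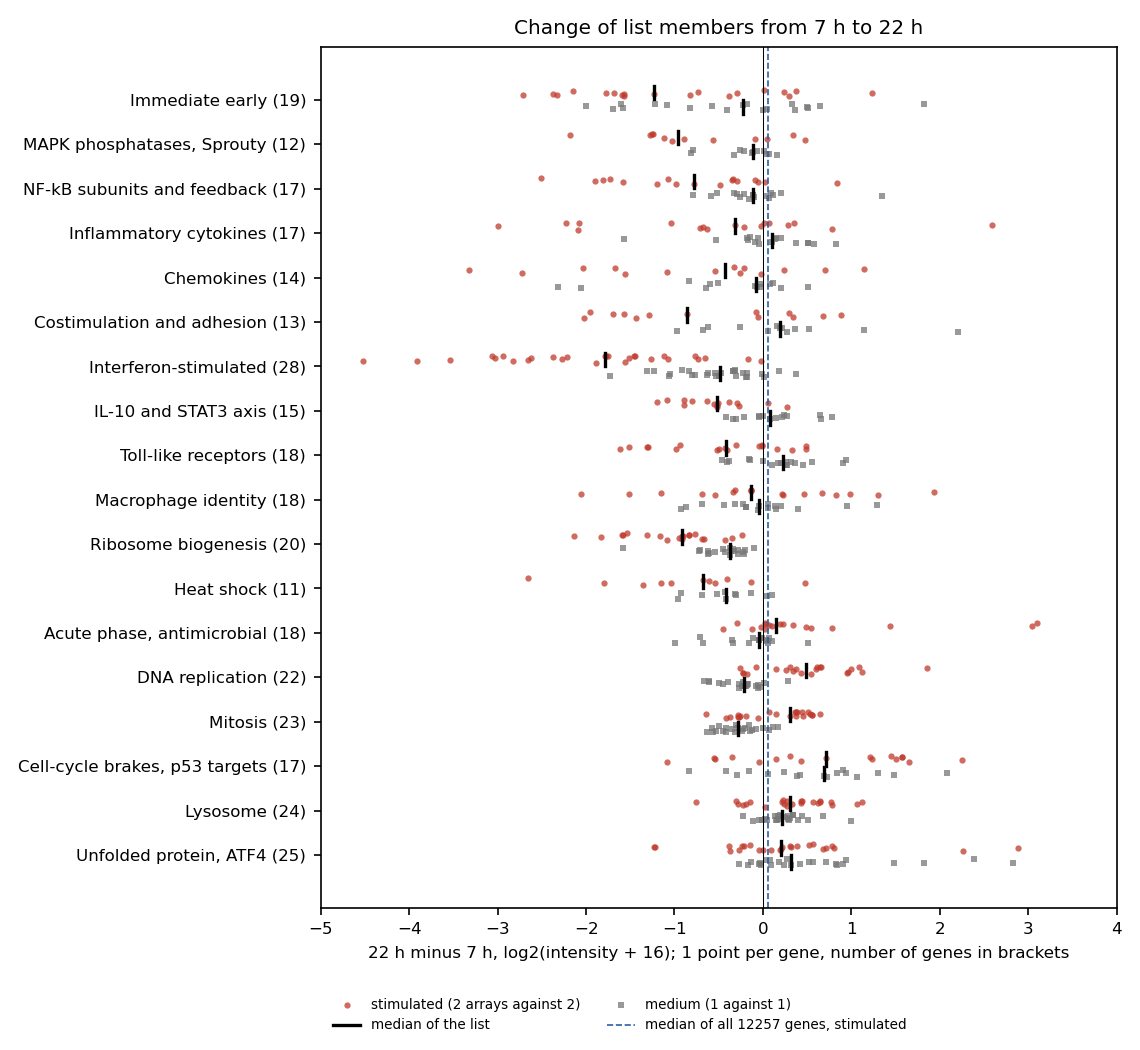
Change from 7 h to 22 h (x axis, log2(intensity + 16)) of each gene of 18 lists in stimulated cells (circles) and medium (squares), with the list median as a black bar and the median of all genes, 0.06, as a dashed line. The interferon-stimulated list (median -1.78), immediate-early genes (-1.23) and ribosome biogenesis (-0.91) lie to the left in stimulated cells, and DNA replication (0.48) to the right, where medium lies to the left (-0.21).

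Some groups moved in medium as well, where the only labelled difference is the hour. In medium, the largest rises were of Selenbp1 (3.14 ± 0.19), Ndrg1 (2.87 ± 0.13) and Trib3 (2.83 ± 0.16), followed by the stress genes Ddit4 and Chac1. Ndrg1, a gene induced by low oxygen, read 170 and 1339 in medium and went from 542 and 581 to 1845 and 1745 in stimulated cells, a rise of 1.65 ± 0.09. Trib3 rose by 2.26 ± 0.12. Chac1, which degrades glutathione and is driven by ATF4, read 69.6 and 432 in medium but 261 and 245 at 7 h, then 322 and 263 at 22 h in stimulated cells, where its change of 0.19 ± 0.12 did not pass. The difference was -2.20 ± 0.20 (adjusted p = 5.14e-05). Of 25 unfolded-protein and ATF4 genes, 11 rose and none fell in medium, against 7.43% and 6.11% of all genes. In stimulated cells 12 rose and 7 fell, against 29.8% and 29.2%, so the count of falls says little about the list. The number that fell was 3 with centring, and 4 without the R848 array at 7 h or with only the 6 arrays of 7 h and 22 h. Of 24 lysosomal genes 17 rose and 4 fell (5 and 0 in medium), mostly by under 2-fold. Gla, a lysosomal galactosidase, rose by 1.12 ± 0.07 in stimulated cells and by 0.99 in medium.

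Hypoxia and lipid genes held other opposite pairs. Adm, which encodes adrenomedullin, went from 209 and 268 to 74.96 and 71.8 in stimulated cells and from 90.0 to 343 in medium. The changes of -1.50 ± 0.12 and 1.76 ± 0.17 differed by -3.26 ± 0.21 (adjusted p = 7.36e-06). Bnip3, a mitophagy receptor, rose by 1.35 in medium and changed by 0.08 ± 0.09 in stimulated cells. Abca1, the cholesterol exporter, read 606 and 491 at 7 h, then 90.0 and 68.8 at 22 h, against 78.0 and 141 in medium; it fell by 2.57 ± 0.12, its other probe sets by 1.56 or more, and medium rose by 0.74. The mild cholesterol-synthesis changes, 10 of 20 genes rising and 5 falling (29.8% and 29.2% of all genes), included Dhcr7 at 1.46 ± 0.07. Hpgds, the hematopoietic prostaglandin D synthase, fell by 0.40 ± 0.11 and rose by 0.65 in medium, and its fall did not pass with quantile normalization, without the R848+API09 array at 7 h (adjusted p = 0.0727) or without both R848+API09 arrays (-0.15, adjusted p = 0.187). Without the R848+API09 array at 22 h its change was -0.22.

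Of the 775 genes that fell at least 2-fold, 234 had been higher than medium at 3 h (30.2%, against 6.26% of all genes). At that hour 29 had been lower (3.74%, against 9.16%) and 512 neither. At 22 h 548 were below medium (70.7%), 93 above and 134 neither. The change was lower than in medium for 700 of the 775 (90.3%, against 15.1% of all genes). In medium 262 also fell (33.8%, against 6.11%). The 775 were chosen by the same change and 22 h arrays. That choice by itself raises the shares below medium at 22 h and below the change in medium. Gpr84, a receptor for medium-chain fatty acids that follows the early response, read 6800 and 6736 at 3 h, 1771 and 1701 at 7 h, then 160 and 49.6 at 22 h, against 758 and 243 in medium. The 22 h arrays differed from each other more than for most genes described. It fell by 4.03 ± 0.32 (adjusted p = 1.24e-06). Hmga2, an architectural chromatin protein, read 1183 and 1113 at 1 h, 1371 and 1235 at 7 h, then 128 and 90.9 at 22 h. Medium read 936 and 365 at 7 h and 22 h. Hmga2 did not pass against medium at 1 h or 3 h and was 0.47 above it at 7 h (adjusted p = 0.0427). All 3 of its probe sets fell, with changes of -3.41 to -2.96. Sfpq, an RNA-binding splicing factor, fell by 3.84 ± 0.10 on its brightest probe set, while its 6 probe sets ran from -3.84 to -0.23, so that the size of the fall differed with the probe set.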

How the data were processed

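Total RNA of RAW cells was extracted with a Qiagen kit, amplified with the NuGEN Ovation system and hybridised to 1-colour Affymetrix arrays, per the labels' protocols. The authors deposited 1 linear intensity for each probe set of an array. How background, summarisation and normalization were handled is not given in the sources used here, and the submitters' processing notes name limma without a version. The precision is limited by the number of arrays.

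Here log2(intensity + 16) was fitted with limma 3.58.1 in R 4.3.3, two-sided, over all 18 arrays with 1 mean per treatment group and hour, R848 and R848+API09 of an hour sharing a mean. The spread therefore comes from 4 pairs of stimulated arrays and the pair of medium arrays at 0 h, and the single medium arrays at 7 h and 22 h were assumed to vary like these. This spread was shared by all hours, although the stimulated pair at 22 h differed more than the earlier ones. A probe set was kept where its intensity was above 18.1 (the median) on at least 3 arrays. The brightest kept probe set with 1 gene symbol stood for its gene, which gave 12257 genes, and p values were adjusted over all of them by the Benjamini-Hochberg method at 0.05. A fold change on this scale understates the change of dim genes. On simulated arrays with 200 changed genes, the comparison of 22 h with 7 h in stimulated cells recovered 82.1% of genes given a log2 change of 0.5 and 100% of those given a larger one. The test of the difference from medium recovered 16.4% at 0.5, 97% at 1 and 100% at 2, so on the simulated arrays small differences were mostly missed. In the data 7225 and 3109 genes passed these 2 tests. The adjusted cutoff is less strict with more genes changed, so the simulated shares need not hold there.

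The rule for named genes took the 15 largest rises and 15 largest falls in stimulated cells that also differed from medium, up to 4 genes per list by size of change, the 8 largest rises against medium at 1 h and at 3 h, and the 5 largest rises and falls in medium. Other genes named were chosen after their values were seen. The members and lists were chosen with earlier results of these data known. Arrays of the same treatment, R848 or R848+API09, were not taken as blocks across hours. The differences between these treatments over genes at an hour correlated with those at another hour at -0.0555 to 0.198. Alternatives covered the normalization, the filter, the pseudocount, the probe set rule, the variance model, a minimum change, the arrays fitted and leaving out single arrays.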

Additional observations from a re-analysis of the deposited data

Results flagged for a closer look

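The change from 7 h to 22 h differed between stimulated cells and medium, by a test of the difference itself, in 1264 genes with the higher change in stimulated cells and in 1845 with the lower. Among the named genes, 5 were called in opposite directions in the 2 settings. The differences between the changes (stimulated minus medium, log2) were -4.23 for Cd83, -3.31 for Abca1, -3.26 for Adm, -1.06 for Hpgds and 4.04 for S100a8. The medium side of each rests on 1 array an hour, and the fall of Hpgds in stimulated cells did not pass without both R848+API09 arrays (-0.15, adjusted p = 0.187).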

How the results depend on the processing

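Counts are given as higher then lower unless said otherwise. With quantile normalization 1413 genes rose in medium, 2328 had a higher change in stimulated cells and 197 of the genes higher at 3 h rose. With median centring 5506 genes rose in stimulated cells, 2326 had a higher change than in medium, 235 of the genes higher at 3 h rose and 165 of those lower at 3 h fell. The filter at the 75th percentile tested fewer and brighter genes, of which 2334 rose (31.3%) and 3076 fell (41.3%). Their median change was -0.08, against 0.06 in the main setting, where 29.8% rose and 29.2% fell. A minimum change of 1 gave 398 and 775 in stimulated cells, 106 and 62 in medium, 192 and 487 for the difference, 3 rises and 27 falls among genes higher at 1 h, 6 and 121 among those higher at 3 h, 18 and 3 among those lower at 3 h, and 30 and 98 in the gene lists. With only the 6 arrays of 7 h and 22 h, 222 and 119 were called in medium and 418 and 798 for the difference. Without both R848+API09 arrays the counts were 1746 and 1790 in medium and 2143 with a higher change, with 16 rises among genes higher at 1 h, 195 among those higher at 3 h, and 941 rises and 469 falls among those lower at 3 h. Without both R848 arrays they were 1746 and 1790 in medium and 3113 with a lower change, with 773 falls among genes higher at 3 h and 661 among those lower at 3 h. Leaving out 1 array at a time gave 2787 to 3929 rises and 3086 to 4243 falls in stimulated cells, 704 to 1642 and 544 to 1686 in medium, 936 to 2166 and 1444 to 3195 for the difference, 9 to 16 rises and 44 to 79 falls among genes higher at 1 h, 76 to 205 and 450 to 748 at 3 h, 417 to 948 rises and 189 to 639 falls among those lower at 3 h, and 127 to 165 and 191 to 235 in the lists. The mean over probe sets reversed Ifnar2 (-0.39, difference -0.44) and Ndufb8 (-0.35), whose probe sets disagree. With the compound as a replicate block 3748 and 3657 genes were called in stimulated cells, and no count over all genes, early sets or the lists together moved by over 1.5 times. Among single lists, falls of prostaglandin genes went from 1 to 3. Of the named genes, Cxcl2 lost its call (adjusted p = 0.0537). When only stimulated arrays were left out, the medium arrays were the same, so the medium counts moved through the shared estimate of the spread. The causes of the other shifts were not tested.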
